A study of Saccharomyces cerevisiae with 36 samples.

Results

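The mitochondrial genes of the yeast Saccharomyces cerevisiae were followed across 12 groups of chemostat cultures, as the rows of the deposited count tables whose systematic identifier begins with Q0 together with 15S_rRNA and 21S_rRNA. The rule gave 30 of the 7122 rows in use, and it used no measured value. They are 8 genes for proteins of respiration, ATP synthesis and the ribosome, 2 ribosomal RNAs, 10 reading frames inside the introns of COX1, COB and 21S_rRNA, and 10 further reading frames that the tables list by identifier alone. RefSeq's R64 annotation held an entry for 21 of the 30, all on the plus strand, and none was matched for the other 9. In a chemostat a steady feed sets the growth rate and a scarce nutrient limits the culture.

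The cultures were limited by nitrogen with 6% glucose (N-lim), by ethanol at 0.5% (Et-lim), by oxygen and glucose at 1% glucose (OxGlu-lim), or by glucose at 0.75% (Glu-lim), and were sampled after 48 to 60 h of steady readings. Each limitation was run in 3 sets. The MC tagged set held the strain HAP1-TAP, which is CEN.PK 113-5D with a purification tag (CBP-ProtA) joined to the C-terminal end of the regulator Hap1p, in vessels labelled MC. The DASGIP tagged set held the same strain in a 1 L vessel labelled DASGIP. The MC untagged set held CEN.PK 113-5D in MC vessels. All groups therefore share the CEN.PK background, and the labels do not say how many clones stand behind either strain. Every group had 3 libraries, stated as biological triplicates by the study's design text, 36 in all.

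In budding yeast the mitochondrial genome codes for the catalytic core of respiratory complexes III and IV, for subunits of the ATP synthase, for a protein of the mitochondrial ribosome, and for the ribosomal and transfer RNAs, while all other mitochondrial proteins come from nuclear genes. The polymerase Rpo41p and its factor Mtf1p begin long RNAs that carry several genes at a short conserved promoter sequence, and these are then cut at tRNAs and end signals and spliced. Several introns of COX1 and COB carry frames that continue from the upstream exon and encode maturases, reverse transcriptases or endonucleases of their own intron, and in yeast high glucose is known to repress respiration.

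The conserved promoter letters were looked for in the mitochondrial chromosome (R64, chrMT, plus strand), because genes of one long RNA share a start. The motif ATATAAGTA had 11 exact matches on the plus strand and 3 on the minus strand, and 5.861% of all plus-strand stretches of 500 bases held one. For the 10 core rows (the 8 protein genes and the 2 rRNAs) the nearest match upstream on the same strand is shown, with 30 bases that end on the motif and the motif in capitals. The lines stand for 15S_rRNA (chrMT:6441-6470), for COX1, ATP8 and ATP6 (chrMT:13328-13357), for COB (chrMT:34857-34886), for OLI1 and VAR1 (chrMT:46128-46157), for 21S_rRNA (chrMT:57979-58008), and for COX2 and COX3 (chrMT:65363-65392).
15S_rRNA: attaataatttatttattattATATAAGTA
COX1, ATP8 and ATP6: aatattaaataataagtattgATATAAGTA
COB: aatataattataagaaatattATATAAGTA
OLI1 and VAR1: atataaatcttatacacatttATATAAGTA
21S_rRNA: tatttattattattattatatATATAAGTA
COX2 and COX3: tgtatatattataataatgttATATAAGTA
The match lay within 500 bases of the annotated start for 3 of the 10 rows, 0 bases ahead of 21S_rRNA, 75 ahead of 15S_rRNA and 460 ahead of COX1. It lay 565 bases ahead of OLI1 and 2743 ahead of VAR1, and 14308 and 15129 bases ahead of ATP8 and ATP6, which follow COX1 on the same strand. For COB the distance was 1653 bases, for COX2 8365 and for COX3 13820. A match is a description of the letters, not a start site measured here.

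Counts summed over all rows came to 10.7 to 22.5 M per library (median 16.7 M, where M stands for 1e6). Reads of rows that overlap enter this sum more than once. The receptor gene STE2 of the MATa mating type lay between 86.2 and 1059 CPM (counts scaled to a common library total) and STE3 of the MATalpha type between 5.7 and 20.2 CPM, and HAP1 was read in every library (140 to 420 CPM). Not all other mating-type markers parted in this way. In MC untagged N-lim cultures MF(ALPHA)1 of the MATalpha type reached 113 CPM, while MFA2 and ASG7 of the MATa type reached 704 and 14.1 CPM. COX1 and 5 intron frames begin at the same base, each ending in a later intron, and COB and 3 frames do likewise; in 36 of 36 libraries the counts followed the order of these ends. A read in the first part of COX1 was thus counted in up to 6 rows, and 10 of the 30 rows lie inside another. The files give no batch, so reactor and strain cannot be told apart from the handling of each set.

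Mitochondrial reads made up a large and variable part of the RNA, and COX1 alone held most of them. Over the 36 libraries the 30 rows took 9.19 to 46.6% of all counted reads (median 25.2%), and the 20 rows that lie in no other took 2.77 to 19.6% (median 9.79%) of a total without the 10 nested rows. The nested sum counts COX1 reads several times: the COX1 span and its frames were 77.0 to 88.5% of the 30-row sum, against 53.0 to 70.9% for COX1 in the sum of the 20. The smaller sum is used for shares from here on. In it Q0255 still shares a few bases with COX2, and overlap was not checked for the 9 rows without a RefSeq entry.

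**Figure D1:**
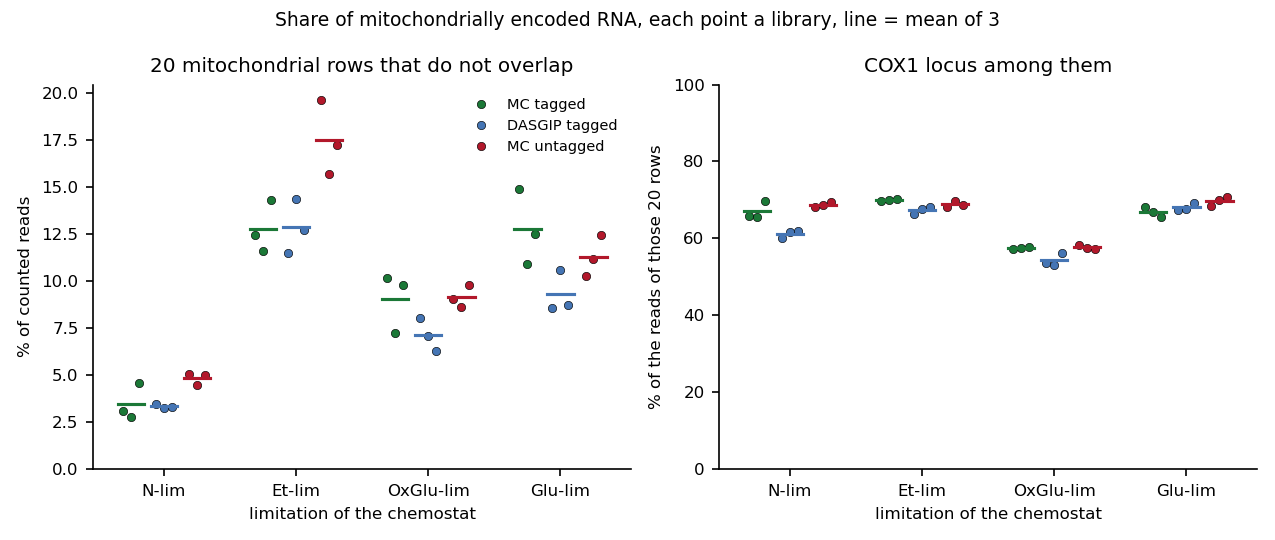
Share of counted reads in the 20 mitochondrial rows left without the nested rows, in percent of all reads counted without nested rows, one point per library and a bar at each mean, for the 4 limitations in the 3 sets. The 9 N-lim libraries lie between 2.77 and 5.07%, below every other library.

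The N-lim share was the lowest in each set. In MC tagged cultures it was 3.07, 2.77 and 4.58% in N-lim, 12.5, 11.6 and 14.3% in Et-lim, 10.2, 7.22 and 9.81% in OxGlu-lim, and 14.9, 10.9 and 12.5% in Glu-lim. In DASGIP tagged cultures it was 3.47, 3.27 and 3.3% in N-lim, 11.5, 14.4 and 12.7% in Et-lim, 8.05, 7.07 and 6.3% in OxGlu-lim, and 8.57, 10.6 and 8.74% in Glu-lim. In MC untagged cultures it was 5.07, 4.49 and 5.02% in N-lim, 19.6, 15.7 and 17.3% in Et-lim, 9.07, 8.63 and 9.78% in OxGlu-lim, and 10.3, 11.2 and 12.4% in Glu-lim. All 9 N-lim libraries lay below the other 27. The Et-lim libraries lay above Glu-lim without overlap in the DASGIP tagged and MC untagged sets, and among them in the MC tagged set, where the means were 12.8 ± 1.37% in Et-lim and 12.8 ± 1.98% in Glu-lim (SD, n = 3 each). The OxGlu-lim libraries lay below Glu-lim without overlap in all 3 sets, with the nearest libraries less than 1 percentage point apart in each. In bulk cultures fewer cells with mitochondrial RNA, less of it per cell and more nuclear RNA cannot be told apart.

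Read density differed widely between genes. Per kilobase of annotated span, on the CPM scale (a level per length, averaged over the 36 libraries), OLI1 stood highest of the core rows at 19054, followed by COX2 at 5672, COX3 at 4538, COX1 at 3766, ATP6 at 3718 and COB at 898. VAR1 stood at 32.4 and ATP8 at 18.9, the lowest of the core rows, with 32 to 1544 reads per library in VAR1 and 4 to 248 in ATP8. The rows 15S_rRNA at 810 and 21S_rRNA at 503 hold what the ribosomal RNA removal of the library kit left, so they are no measure of ribosome content. Lengths of COX1 and COB include introns. Among the other 20 rows the highest level was that of AI1 at 7248, and the lowest mean count that of Q0144 at 0.444 reads. A total of 9 of the 30 rows had a mean under 100 reads, and 3 (Q0032, Q0092 and Q0144) did not pass the filter on low counts, which left 27 tested.

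Every mitochondrial row tested stood lower under nitrogen limitation with excess glucose than under glucose limitation. All 27 tested rows were called lower in N-lim than in Glu-lim on the mean of the 3 sets, where 71.7% of all 6612 rows tested were called (37.4% lower), and the median difference was -1.67 (log2) for the members and -0.0216 for all rows. Within sets, 26 were called lower in MC tagged (55.2% of all rows called), 27 in DASGIP tagged (55.8%) and 24 in MC untagged cultures (62.3%).

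COX1 (chrMT:13818-26701, 8 exons) codes for the largest core subunit of cytochrome c oxidase, complex IV, which passes electrons to oxygen. Its level was 14994, 12907 and 22998 CPM in MC tagged N-lim cultures, against 84096, 59279 and 67154 CPM in MC tagged Glu-lim cultures. In DASGIP tagged cultures it was 14536, 14056 and 14461 CPM in N-lim, against 45401, 56175 and 47202 CPM in Glu-lim. The MC untagged libraries gave 27095, 24015 and 27280 CPM in N-lim, against 67397, 74443 and 81117 CPM in Glu-lim. The groups did not overlap in any set, and the third MC tagged N-lim library lay above the other two. COX1 fell in N-lim (log2 difference -1.78 ± 0.12, edgeR adjusted p = 4.06e-14). The difference was -2.05 ± 0.21 in MC tagged, -1.79 ± 0.21 in DASGIP tagged and -1.51 ± 0.21 in MC untagged cultures. CPM values and log2 differences both follow the TMM scaling of the fit.

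The other core subunits of complex IV moved by unlike amounts. COX2 (chrMT:73758-74513) codes for the subunit that takes electrons from cytochrome c, and it fell in N-lim (log2 difference -1.39 ± 0.10, edgeR adjusted p = 7.5e-14). COX3 (chrMT:79213-80022) codes for the third core subunit and fell by more (log2 difference -1.95 ± 0.11, edgeR adjusted p = 4.14e-16). COX2 stood at 1508, 1318 and 1797 CPM in MC tagged N-lim cultures, against 5829, 4378 and 4904 CPM in Glu-lim, and COX3 at 971, 825 and 1285 CPM in N-lim, against 6025, 4833 and 5264 CPM in Glu-lim. Counted against each other, COX2 reads were 152% ± 10.5 of COX3 reads in MC tagged N-lim and 93.5% ± 3.09 in MC tagged Glu-lim cultures (SD, n = 3 each). Over the 3 sets the ratio was higher in N-lim by 0.56 on the log2 scale, adjusted p = 0.00102 (exact two-sided permutation test within sets, Benjamini-Hochberg over the 45 ratio tests).

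COB (chrMT:36540-43647) codes for cytochrome b of complex III, the bc1 complex that hands electrons to cytochrome c. It stood at 1697, 1452 and 2706 CPM in MC tagged N-lim, against 10669, 6945 and 7699 CPM in Glu-lim cultures, without overlap, and fell over the 3 sets (log2 difference -1.59 ± 0.12, edgeR adjusted p = 7.73e-13). ATP6 (chrMT:28487-29266), subunit a of the ATP synthase, fell most of the core rows in N-lim: 608, 541 and 1214 CPM in MC tagged N-lim cultures, against 5140, 3851 and 3714 CPM in Glu-lim, and 439, 366 and 431 CPM in DASGIP tagged N-lim, against 2206, 2543 and 1896 CPM in Glu-lim. Every N-lim library lay below the Glu-lim libraries of its set (log2 difference -2.15 ± 0.13, edgeR adjusted p = 5.93e-15). ATP6 also fell relative to COX1, which lies upstream behind the same promoter match (log2 difference of the ratio -0.39, adjusted p = 0.00161, exact permutation test). OLI1 (chrMT:46723-46953), the proteolipid subunit c that forms the rotor ring, fell in N-lim (log2 difference -1.54 ± 0.12, edgeR adjusted p = 6.93e-13). ATP8 (chrMT:27666-27812), a small membrane subunit, fell too (log2 difference -1.17 ± 0.31, edgeR adjusted p = 0.0014), with 1.35, 1.48 and 0.412 CPM in MC tagged N-lim and 1.44, 0.991 and 1.39 CPM in Glu-lim cultures. These ATP8 values overlapped in the MC tagged set.

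The genes of the mitochondrial ribosome fell too. VAR1 (chrMT:48901-50097) codes for the sole ribosomal protein of this genome and fell in N-lim (log2 difference -1.35 ± 0.18, edgeR adjusted p = 8.28e-08). The large-subunit RNA 21S_rRNA (chrMT:58009-62447) differed by -1.71 ± 0.16 (adjusted p = 1.46e-10) and the small-subunit RNA 15S_rRNA (chrMT:6546-8194) by -1.57 ± 0.20 (adjusted p = 3.42e-08). N-lim and Glu-lim libraries did not overlap in any set for these 3 rows. The 17 other rows tested were all called lower, between -2.62 for Q0010, a frame of unknown function with a mean of 8.72 reads, and -1.27 for Q0297.

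**Figure D2:**
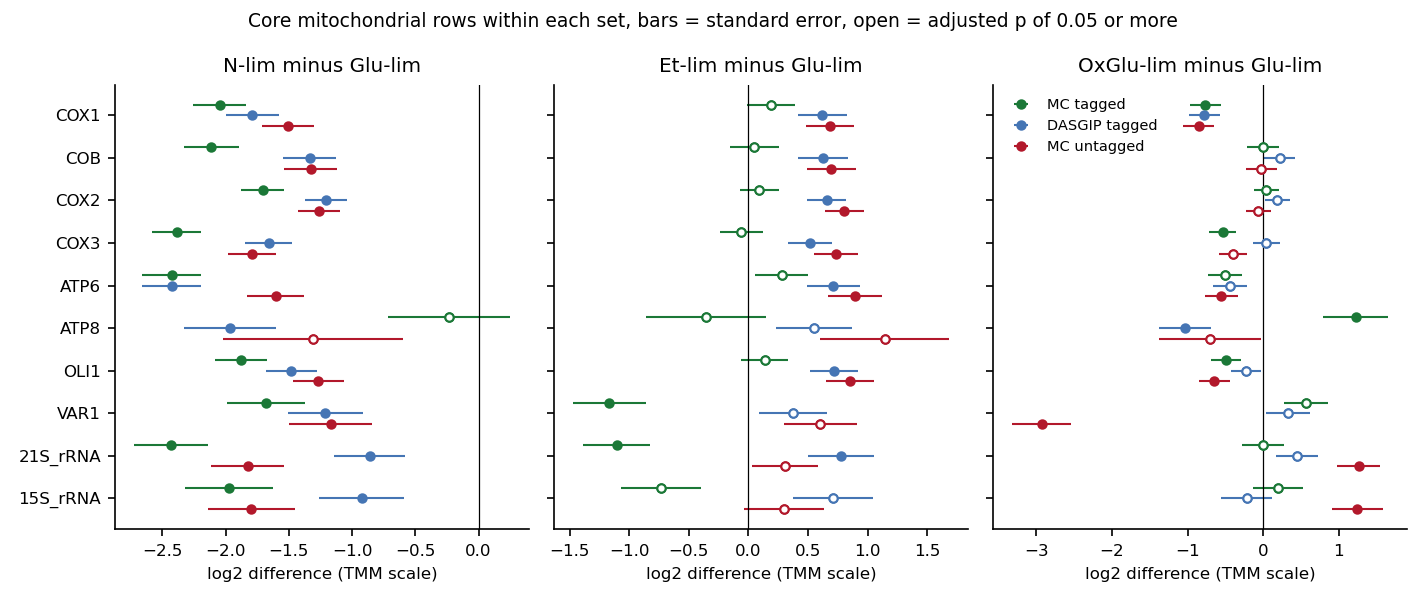
log2 differences of the 10 core rows against Glu-lim within each of the 3 sets, in N-lim, in Et-lim and in OxGlu-lim. Bars are 1 standard error, filled points passed an adjusted p of 0.05 in edgeR and open points did not. All 10 rows lie below 0 in N-lim in each set. The means of the 3 sets are not drawn. On those means 6 rows are called above 0 in Et-lim, and in OxGlu-lim COX1 lies lowest (-0.80) and 21S_rRNA highest (0.57).

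In ethanol, which yeast can use only by respiration, the protein genes of respiration and ATP synthesis except ATP8 stood higher, and the ribosomal rows did not pass the test. Of the 27 tested rows 17 were called higher and 3 lower in Et-lim than in Glu-lim on the mean of the 3 sets, against 59.3% of all rows called. Without scaling factors the split was 14 higher and 5 lower. The median difference was 0.43 for the members and 0.00576 for all rows (log2). The core rows called were COX1 (log2 difference 0.50 ± 0.12, edgeR adjusted p = 0.000569), COX2 at 0.52 ± 0.09 (adjusted p = 2.95e-05), COX3 at 0.40 ± 0.11 (adjusted p = 0.00183), COB at 0.46 ± 0.12 (adjusted p = 0.00164), ATP6 at 0.63 ± 0.13 (adjusted p = 0.000125) and OLI1 at 0.57 ± 0.12 (adjusted p = 0.000105). ATP8 at 0.44 ± 0.27 (adjusted p = 0.157), VAR1 at -0.06 ± 0.17 (adjusted p = 0.774), 21S_rRNA at -0.01 ± 0.16 (adjusted p = 0.974) and 15S_rRNA at 0.09 ± 0.19 (adjusted p = 0.707) did not pass.

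Within sets, rows were called higher in ethanol in the DASGIP tagged and MC untagged sets alone, and whether the Et-lim difference itself differs between sets was not tested for Et-lim alone. In MC untagged cultures COX1 stood at 141075, 103491 and 113890 CPM in Et-lim, against 67397, 74443 and 81117 CPM in Glu-lim. In DASGIP tagged cultures it stood at 64902, 86688 and 77110 CPM in Et-lim, against 45401, 56175 and 47202 CPM in Glu-lim. In MC tagged cultures it stood at 77877, 70182 and 92287 CPM in Et-lim, against 84096, 59279 and 67154 CPM in Glu-lim. Et-lim lay above Glu-lim without overlap in the MC untagged and DASGIP tagged sets, and the values interleaved in the MC tagged set. The differences were 0.19 ± 0.20 (adjusted p = 0.456) in MC tagged, 0.62 ± 0.20 (adjusted p = 0.0192) in DASGIP tagged and 0.69 ± 0.20 (adjusted p = 0.00835) in MC untagged cultures. No row was called higher and 7 were called lower in MC tagged cultures (46.6% of all rows called), while 17 were called higher and none lower in DASGIP tagged (32.3%) and in MC untagged cultures (37.8%). Without its Et-lim library 2 or its Glu-lim library 3 the DASGIP tagged count was 4, without Glu-lim library 1 it was 5 and without Et-lim library 3 it was 11, and the MC untagged count was 9 without Et-lim library 1. COX1 then no longer passed, except without DASGIP tagged Et-lim library 3. VAR1 was among the rows that lay lower without overlap in the MC tagged set, with 18.5, 17.5 and 23.5 CPM in Et-lim, against 43.5, 32.2 and 58 CPM in Glu-lim.

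Under joint oxygen and glucose limitation the mitochondrial genes moved apart. COX1 fell while COB and COX2 did not pass the test in either direction, and 21S_rRNA was the sole member called higher. Of the 27 tested rows 1 was called higher and 14 lower in OxGlu-lim than in Glu-lim, against 65.2% of all rows called (median difference -0.46 for the members, 0.0081 for all rows). Without scaling factors the split was 10 higher and 10 lower. Within sets 2 were called higher and 12 lower in MC tagged (45.1% of all rows), 8 lower in DASGIP tagged (44.4%), and 2 higher and 14 lower in MC untagged cultures (58.3%).

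COX1 stood at 46652, 29854 and 47434 CPM in MC tagged OxGlu-lim cultures, against 84096, 59279 and 67154 CPM in Glu-lim. In DASGIP tagged cultures it stood at 33340, 27471 and 25868 CPM in OxGlu-lim, against 45401, 56175 and 47202 CPM in Glu-lim. The MC untagged libraries gave 40233, 38820 and 44341 CPM in OxGlu-lim, against 67397, 74443 and 81117 CPM in Glu-lim. All OxGlu-lim libraries lay below the Glu-lim libraries of their set (log2 difference -0.80 ± 0.12, edgeR adjusted p = 6.95e-07). The differences within sets were -0.76 ± 0.20 (adjusted p = 0.00285) in MC tagged, -0.78 ± 0.20 (adjusted p = 0.00231) in DASGIP tagged and -0.85 ± 0.20 (adjusted p = 0.000689) in MC untagged cultures. COX3 (-0.30 ± 0.11 (adjusted p = 0.0152)), ATP6 (-0.50 ± 0.13 (adjusted p = 0.00122)), OLI1 (-0.46 ± 0.12 (adjusted p = 0.000975)) and VAR1 (-0.68 ± 0.19 (adjusted p = 0.00261)) were also called lower in the edgeR fit.

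COB stood at 8601, 5623 and 11084 CPM in MC tagged OxGlu-lim, against 10669, 6945 and 7699 CPM in Glu-lim. It stood at 6599, 5557 and 5681 CPM in DASGIP tagged OxGlu-lim, against 4659, 5782 and 4872 CPM in Glu-lim. It stood at 7454, 7793 and 9201 CPM in MC untagged OxGlu-lim, against 7751, 7859 and 9268 CPM in Glu-lim. The groups overlapped in all 3 sets (log2 difference 0.06 ± 0.12, edgeR adjusted p = 0.648), as did those of COX2 (log2 difference 0.06 ± 0.09, edgeR adjusted p = 0.62). COB reads were therefore a larger part of COX1 reads in OxGlu-lim: 18.4, 18.8 and 23.4% in MC tagged OxGlu-lim, against 12.7, 11.7 and 11.5% in Glu-lim cultures. They were 19.8, 20.2 and 22% in DASGIP tagged OxGlu-lim, against 10.3, 10.3 and 10.3% in Glu-lim. The share was 18.5, 20.1 and 20.7% in MC untagged OxGlu-lim, against 11.5, 10.6 and 11.4% in Glu-lim cultures. Every OxGlu-lim library lay above every Glu-lim library, and the ratio was higher by 0.86 on the log2 scale, adjusted p = 0.00102 (exact permutation test within sets). COX1 made up 57.5 ± 0.335% of the 20-row sum in MC tagged OxGlu-lim, against 66.9 ± 1.26% in Glu-lim cultures. It made up 54.3 ± 1.66% in DASGIP tagged OxGlu-lim, against 68.1 ± 1.04% in Glu-lim, and 57.6 ± 0.503% in MC untagged OxGlu-lim, against 69.7 ± 1.26% in Glu-lim (SD, n = 3 each).

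The loss of COX1 reads in OxGlu-lim was uneven along the gene. Differences between nested rows split COX1 into 6 parts that do not overlap. The first 5 end where an intron frame ends, and the last runs to the end of COX1 without the bases of AI5_BETA, so that 2434 bases are counted in it. The first part (chrMT:13818-16322, 6.75% exon bases) holds exon 1 and most of intron 1 with the frame AI1, and the second (chrMT:16323-18830, 1.44% exon) most of intron 2 with AI2. Both frames encode intron-specific maturases with reverse transcriptase activity. The fourth part (chrMT:19997-21935, 24.6% exon) runs to the end of AI4, a frame for an endonuclease and latent maturase. The junctions around introns 1 and 2 are shown because the first and second parts are made almost wholly of these introns. Each line holds 15 bases of exon in lower case and 15 of intron in capitals, in the order exon 1 to intron 1 (chrMT:13972-14001), intron 1 to exon 2 (chrMT:16420-16449), exon 2 to intron 2 (chrMT:16456-16485) and intron 2 to exon 3 (chrMT:18939-18968).
COX1 exon 1 to intron 1: cacaattatttaatgGTGCGCCTCTCAGTG
COX1 intron 1 to exon 2: AATTTGCTATTTCATttttagtagttggtc
COX1 exon 2 to intron 2: tattaatgattttctGTGCGCCGTTTCGCT
COX1 intron 2 to exon 3: GGTTTGCTACTCTACtcttagtaatgcctg
Both introns begin with the letters GTGCGCC. The tables count reads per row and not per junction, so spliced and unspliced RNA were not separated.

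The first part held 27.4, 27 and 23.6% of COX1 reads in MC tagged OxGlu-lim, against 38.9, 37.7 and 38.6% in Glu-lim cultures. It held 28.2, 28.7 and 28.4% in DASGIP tagged OxGlu-lim, against 41.8, 41.9 and 42.3% in Glu-lim. The share was 27.6, 25.6 and 26.3% in MC untagged OxGlu-lim, against 39.9, 40.3 and 42% in Glu-lim. OxGlu-lim lay below Glu-lim without overlap in 3 of 3 sets, with a mean of 27.0% in OxGlu-lim and 40.4% in Glu-lim. The fourth part moved the other way, with a mean of 19.5% in OxGlu-lim and 11.8% in Glu-lim, again without overlap in 3 of 3 sets. It held 18.6, 19.1 and 19.9% in MC tagged OxGlu-lim, against 11.2, 12.7 and 12.6% in Glu-lim. It was 17.2, 16.8 and 16.4% in DASGIP tagged OxGlu-lim, against 11.1, 10.8 and 11.4% in Glu-lim. The share was 23.1, 22.9 and 21.9% in MC untagged OxGlu-lim, against 12.9, 12.3 and 11.5% in Glu-lim. The second part held 31.3% in OxGlu-lim and 31.8% in Glu-lim on the mean, with opposite shifts in the sets. It held 30.8, 29.2 and 31.0% in MC tagged OxGlu-lim, against 32.9, 33.0 and 31.7% in Glu-lim, lower without overlap. In DASGIP tagged cultures its mean was higher, at 31.8, 31.6 and 32.9% in OxGlu-lim, against 31.2, 31.6 and 30.4% in Glu-lim. The nearest libraries there all but met, at 31.640% in OxGlu-lim and 31.634% in Glu-lim. In MC untagged cultures the groups overlapped.

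In a fit with the parts in place of the nested rows, added after the data were seen and run over 6614 rows (65.1% called), the first part was lower in OxGlu-lim (log2 difference -1.38 ± 0.12, edgeR adjusted p = 1.01e-11). The second (-0.82 ± 0.12, adjusted p = 5.03e-07), the fifth (-0.27 ± 0.11, adjusted p = 0.0357) and the last (-0.43 ± 0.12, adjusted p = 0.00267) were lower too. The third at 0.05 ± 0.12 (adjusted p = 0.725) and the fourth at -0.07 ± 0.10 (adjusted p = 0.561) did not pass. The 4 parts of COB, cut in the same way at the ends of the maturase frames BI2, BI3 and BI4, did not pass either and lay between 0.02 and 0.10. The first part of COB held 47.0% of COB reads in OxGlu-lim and 46.6% in Glu-lim on the mean. In the same fit 9 members or parts were called in MC tagged OxGlu-lim cultures (45% of all rows called) and 4 in DASGIP tagged ones (44.4%). The reactor contrast had 8 called in OxGlu-lim (18.1%) and 14 in Glu-lim (20.8%), and the strain contrast 11 on the mean of the limitations (18.4%). The first part of COX1 was a larger share of COX1 in N-lim, 45.8% against 40.4% in Glu-lim, without overlap in 3 of 3 sets, and 38.5% in Et-lim. Reads of the AI4 row were 78.8 to 82.9% of COX1 reads in the OxGlu-lim groups, against 84.7 to 86.2% in the Glu-lim groups (-0.09 on the log2 scale, adjusted p = 0.00102, exact permutation test), and those of BI4 were 74.2 to 78.0% of COB reads in all 12 groups. The strand of the counted reads is not given in the sources used here, so antisense RNA of these parts was not separated.

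**Figure D3:**
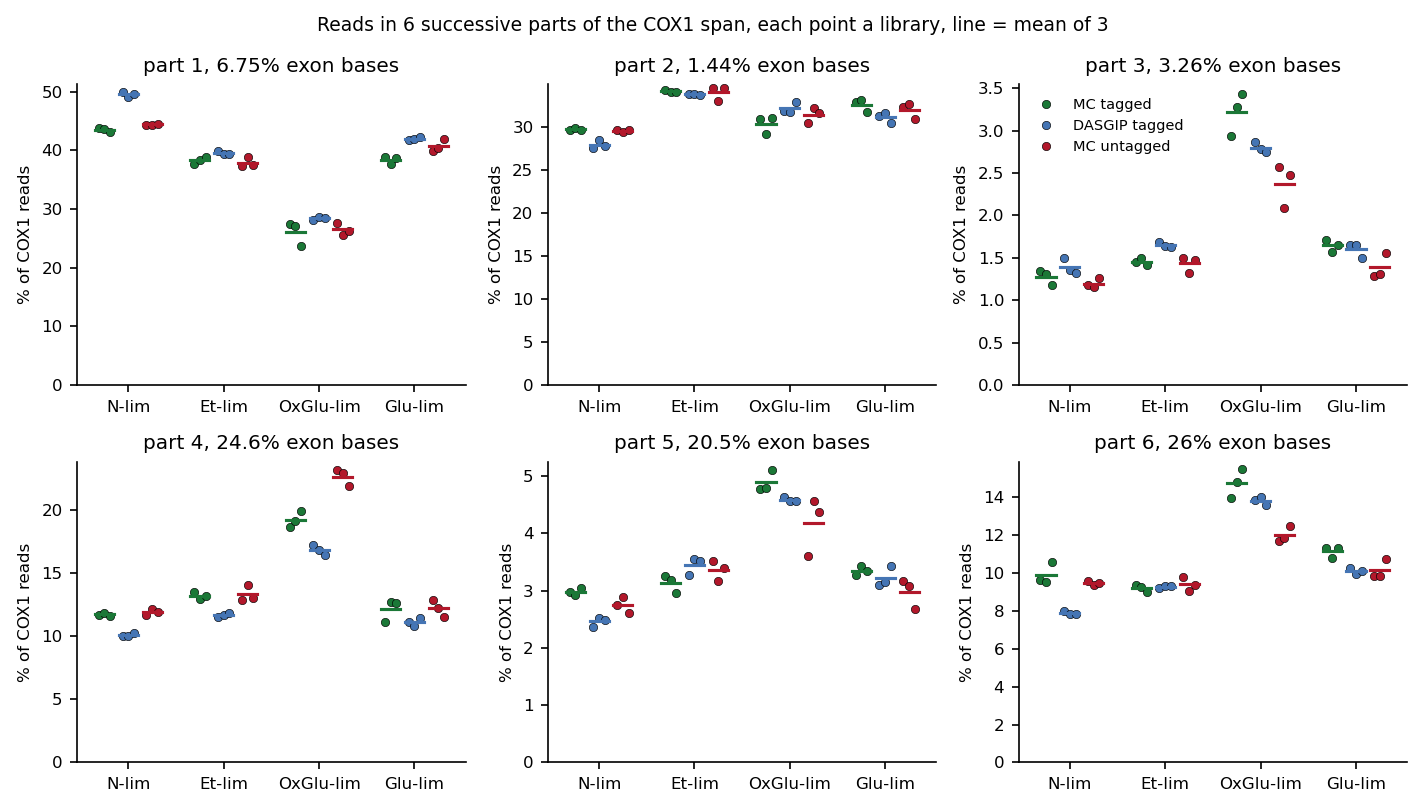
Percent of COX1 reads in each of the 6 parts of the gene that do not overlap, in order along the gene. Points are libraries and short bars mark group means, for the 4 limitations in the 3 sets. In OxGlu-lim the first part holds 23.6 to 28.7% of COX1 reads and in Glu-lim 37.7 to 42.3%.

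Of the rRNA rows, 21S_rRNA was called higher in OxGlu-lim and 15S_rRNA did not pass. 21S_rRNA stood at 4064, 2662 and 2371 CPM in MC tagged OxGlu-lim, against 2535, 2123 and 4414 CPM in Glu-lim. It stood at 4191, 3809 and 1467 CPM in DASGIP tagged OxGlu-lim, against 2232, 2600 and 2097 CPM in Glu-lim. It stood at 4414, 3592 and 4137 CPM in MC untagged OxGlu-lim, against 1758, 1763 and 1531 CPM in Glu-lim. The groups were apart in the MC untagged set alone; the third DASGIP tagged OxGlu-lim library lay far below its 2 partners, and the third MC tagged Glu-lim library far above its 2 partners. Over the 3 sets 21S_rRNA was higher in OxGlu-lim (log2 difference 0.57 ± 0.16, edgeR adjusted p = 0.00259), with 0.00 ± 0.28 (adjusted p = 0.994) in MC tagged, 0.45 ± 0.28 (adjusted p = 0.194) in DASGIP tagged and 1.27 ± 0.28 (adjusted p = 0.000328) in MC untagged cultures. For 15S_rRNA the mean difference was 0.41 ± 0.19 (adjusted p = 0.0641), with 1.25 ± 0.34 (adjusted p = 0.0024) in MC untagged cultures, and the same libraries stood apart.

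The ratio of the rRNA rows moved in unlike directions in the sets. 21S_rRNA reads were 210, 216 and 197% of 15S_rRNA reads in DASGIP tagged OxGlu-lim, against 113, 137 and 155% in Glu-lim, without overlap. They were 176% ± 46.7 in MC tagged OxGlu-lim, with overlap, and 198% ± 22.8 in Glu-lim cultures (SD, n = 3 each). None of the 3 limitation contrasts of this ratio passed (differences of -0.17 (adjusted p = 0.151) in N-lim, -0.12 (adjusted p = 0.265) in Et-lim and 0.15 (adjusted p = 0.338) in OxGlu-lim, exact permutation tests). The frame SCEI (chrMT:61022-61729), the homing endonuclease gene inside the intron of 21S_rRNA, was compared with its host. SCEI reads were 8.14, 6.83 and 12.5% of 21S_rRNA reads in MC tagged OxGlu-lim, against 18.8, 15 and 9.92% in Glu-lim, with overlap. They were 8.43% ± 2.38 in DASGIP tagged OxGlu-lim, against 11.4% ± 0.387 in Glu-lim, also with overlap, and 6.13% ± 1.03 in MC untagged OxGlu-lim, against 19.1% ± 4.36 in Glu-lim cultures, without overlap (SD, n = 3 each). Over the 3 sets the ratio was lower in OxGlu-lim (log2 difference -0.93), adjusted p = 0.00422 (exact permutation test). The denominator is what rRNA removal left. Relative to the sum of the mitochondrial rows SCEI was higher in OxGlu-lim (log2 difference 0.43 ± 0.10, edgeR adjusted p = 0.000161). That sum counts COX1 reads several times and was a smaller share of all reads in OxGlu-lim than in Glu-lim. In the main fit SCEI was not called higher, and its CPM overlapped in all 3 sets. SCEI stood at 331, 182 and 296 CPM in MC tagged OxGlu-lim, against 478, 319 and 438 in Glu-lim. It stood at 304, 262 and 164 CPM in DASGIP tagged OxGlu-lim, against 246, 303 and 245 in Glu-lim. It stood at 218, 237 and 283 CPM in MC untagged OxGlu-lim, against 275, 311 and 367 in Glu-lim.

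**Figure D4:**
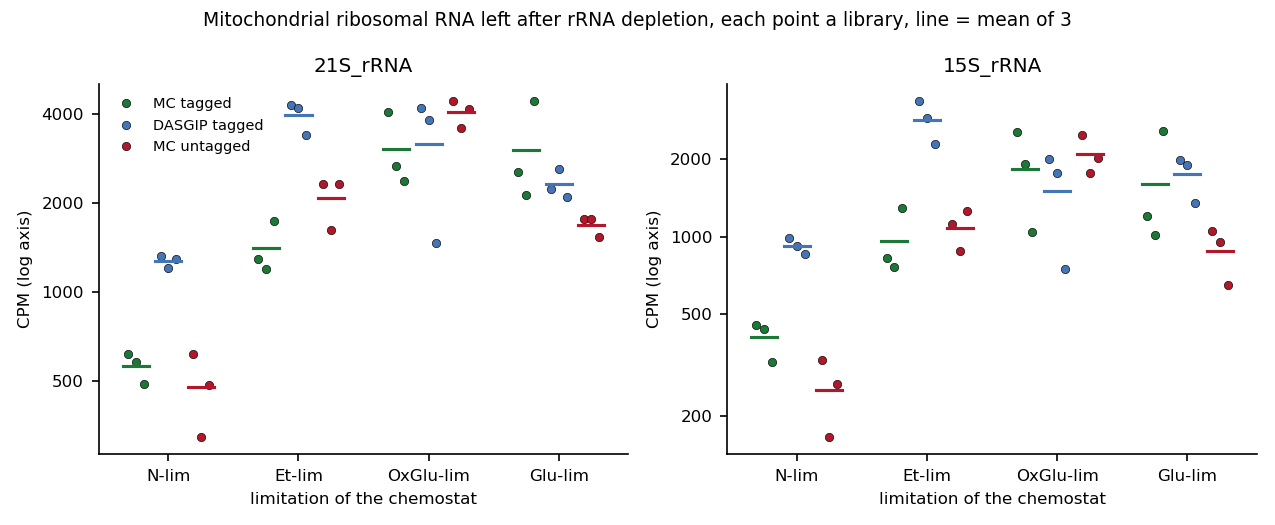
CPM of 21S_rRNA and 15S_rRNA on a log axis, one point per library, for the 4 limitations in the 3 sets. Group means of both rows are lowest in N-lim in each set. In OxGlu-lim the third DASGIP tagged library (1467 CPM of 21S_rRNA) stands below its partners (4191 and 3809 CPM), and its 746 CPM of 15S_rRNA lie below the DASGIP tagged N-lim libraries (857 to 984 CPM).

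On the mean of the 4 limitations ATP6, OLI1, COX1 and COB stood higher in the MC vessels, and ATP8, VAR1 and the rRNAs lower. Comparing MC tagged with DASGIP tagged cultures asks what the vessel does in the same strain. On the mean of the 4 limitations 12 of 27 rows were called higher and 9 lower, against 34.4% of all rows called (median difference 0.16 for the members and 1.71e-05 for all rows). ATP6 was higher in MC vessels (log2 difference 0.81 ± 0.11, edgeR adjusted p = 2.13e-06), and OLI1 (0.49 ± 0.10 (adjusted p = 0.000327)), COX1 (0.33 ± 0.10 (adjusted p = 0.0115)) and COB (0.33 ± 0.10 (adjusted p = 0.013)) were higher by less. MC tagged libraries lay above DASGIP tagged ones without overlap in Glu-lim alone for COX1 and COB, and in N-lim and Glu-lim for OLI1. COX1 in N-lim stood at 14994, 12907 and 22998 CPM in MC tagged cultures, against 14536, 14056 and 14461 CPM in DASGIP tagged ones. COX2 at -0.04 ± 0.08 (adjusted p = 0.762) and COX3 at 0.16 ± 0.09 (adjusted p = 0.172) did not pass. ATP8 was lower (log2 difference -1.82 ± 0.20, edgeR adjusted p = 7.38e-08), and so were VAR1 (-0.94 ± 0.15 (adjusted p = 1.52e-05)), 21S_rRNA (-0.58 ± 0.14 (adjusted p = 0.00165)) and 15S_rRNA (-0.65 ± 0.17 (adjusted p = 0.00342)). Within limitations 2 of 27 were called higher and 6 lower in N-lim (18.3% of all rows called), 6 lower in Et-lim (11.8%), 2 higher in OxGlu-lim (17.6%), and 8 higher and 1 lower in Glu-lim (21.1%).

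ATP6 lay higher in the MC vessels in each limitation. It stood at 608, 541 and 1214 CPM in MC tagged N-lim, against 439, 366 and 431 CPM in DASGIP tagged N-lim cultures. It stood at 5043, 4596 and 5789 CPM in MC tagged Et-lim, against 3174, 4124 and 3578 CPM in DASGIP tagged Et-lim. It stood at 2908, 1997 and 4038 CPM in MC tagged OxGlu-lim, against 1809, 1475 and 1620 CPM in DASGIP tagged OxGlu-lim. It stood at 5140, 3851 and 3714 CPM in MC tagged Glu-lim, against 2206, 2543 and 1896 CPM in DASGIP tagged Glu-lim cultures. MC tagged libraries lay above DASGIP tagged ones without overlap in all 4 limitations, with differences of 0.93 ± 0.22 (adjusted p = 0.00383) in N-lim, 0.50 ± 0.22 (adjusted p = 0.145) in Et-lim, 0.87 ± 0.22 (adjusted p = 0.00731) in OxGlu-lim and 0.93 ± 0.22 (adjusted p = 0.00358) in Glu-lim. Without the third MC tagged N-lim library the N-lim difference was 0.48 and did not pass, and without the third MC tagged OxGlu-lim library that of OxGlu-lim was 0.59 and did not pass. The ratio of ATP6 to COX1 was higher in MC vessels by 0.46 on the log2 scale, adjusted p = 0.000562 (exact permutation test within limitations).

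ATP8 lies between COX1 and ATP6 and is known to be transcribed with them, and its counts moved in the other direction. ATP8 stood at 0.988, 0.757 and 1.23 CPM in MC tagged Et-lim, against 7.15, 15 and 11.6 CPM in DASGIP tagged Et-lim. It stood at 1.44, 0.991 and 1.39 CPM in MC tagged Glu-lim, against 8.11, 9.5 and 5.35 CPM in DASGIP tagged Glu-lim cultures. It stood at 1.35, 1.48 and 0.412 CPM in MC tagged N-lim, against 1.57, 2.09 and 2.27 CPM in DASGIP tagged N-lim. It stood at 5.15, 2.82 and 1.09 CPM in MC tagged OxGlu-lim, against 4.96, 4 and 2.16 CPM in DASGIP tagged OxGlu-lim cultures. The groups were apart except in OxGlu-lim. The differences were -0.86 ± 0.45 (adjusted p = 0.192) in N-lim, -3.50 ± 0.41 (adjusted p = 8.63e-07) in Et-lim, -0.34 ± 0.38 (adjusted p = 0.587) in OxGlu-lim and -2.59 ± 0.39 (adjusted p = 3.37e-05) in Glu-lim, and they varied by limitation (edgeR adjusted p = 0.000436). Reads of ATP8 were 0.0191 to 0.176% of ATP6 reads in the MC tagged groups, against 0.226 to 0.485% in the DASGIP tagged groups (-2.64 on the log2 scale, adjusted p = 0.00075, exact permutation test).

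VAR1 stood at 18.5, 17.5 and 23.5 CPM in MC tagged Et-lim, against 62.1, 93.3 and 88.9 CPM in DASGIP tagged Et-lim. It stood at 16.4, 14.6 and 10.6 CPM in MC tagged N-lim, against 25.4, 31.8 and 24 CPM in DASGIP tagged N-lim cultures, both without overlap. The differences were -0.97 ± 0.31 (adjusted p = 0.0292) in N-lim, -2.04 ± 0.31 (adjusted p = 3.9e-05) in Et-lim, -0.26 ± 0.29 (adjusted p = 0.582) in OxGlu-lim and -0.50 ± 0.29 (adjusted p = 0.227) in Glu-lim, and they too varied by limitation (edgeR adjusted p = 0.00911). 21S_rRNA stood at 1293, 1195 and 1738 CPM in MC tagged Et-lim, against 4297, 4183 and 3381 CPM in DASGIP tagged Et-lim. Its differences were -1.18 ± 0.28 (adjusted p = 0.0035) in N-lim, -1.49 ± 0.28 (adjusted p = 0.000665) in Et-lim, -0.06 ± 0.28 (adjusted p = 0.916) in OxGlu-lim and 0.39 ± 0.28 (adjusted p = 0.335) in Glu-lim. Of the 27 rows 8 varied by limitation in the reactor contrast (24.1% of all rows).

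The tagged and untagged strains in MC vessels differed most in VAR1. This comparison asks what the tag on Hap1p, an activator of genes for respiration, goes with in the same kind of vessel, and it shares the MC tagged libraries with the reactor comparison. On the mean of the 4 limitations 4 of 27 rows were called higher and 13 lower in MC tagged than in MC untagged cultures, against 18.1% of all rows called (median difference -0.28 for the members, -0.00797 for all rows). Without scaling factors the split was 9 higher and 9 lower. ATP6 (-0.45 ± 0.11 (adjusted p = 0.0051)), COX3 (-0.34 ± 0.09 (adjusted p = 0.00987)), COB (-0.33 ± 0.10 (adjusted p = 0.0271)), COX1 (-0.32 ± 0.10 (adjusted p = 0.0278)) and OLI1 (-0.28 ± 0.10 (adjusted p = 0.0458)) were called lower in edgeR, and VAR1 (1.28 ± 0.17 (adjusted p = 5.23e-06)) and ATP8 (1.21 ± 0.28 (adjusted p = 0.00367)) higher. The calls of COX1, COB and OLI1 were lost in 6, 8 and 22 of the 36 fits that left out 1 library. COX2 at -0.20 ± 0.08 (adjusted p = 0.0918), 21S_rRNA at 0.03 ± 0.14 (adjusted p = 0.916) and 15S_rRNA at 0.29 ± 0.17 (adjusted p = 0.23) did not pass. Within limitations 1 was called higher and 14 lower in N-lim (32.4% of all rows called; 6 calls in all without MC tagged N-lim library 1 or 2, and 9 without MC untagged N-lim library 3), 6 higher in OxGlu-lim (24.1%) and 3 higher in Glu-lim (22.5%). In Et-lim none was called in edgeR (0.272% of all rows), 19 of 27 had an unadjusted p under 0.05, and DESeq2 called 5. The strain difference varied by limitation for 16 of the 27 rows (47.7% of all rows).

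VAR1 in OxGlu-lim gave the widest gap of any core row between the strains. It stood at 91.9, 52.6 and 54.1 CPM in MC tagged OxGlu-lim, against 3.59, 2.17 and 3.04 CPM in MC untagged OxGlu-lim cultures, where it had 64, 32 and 48 reads. It stood at 94.4, 83.2 and 59 CPM in DASGIP tagged OxGlu-lim. Both tagged sets lay far above the untagged one. In the other limitations it stood at 16.4, 14.6 and 10.6 CPM in MC tagged N-lim, against 11.7, 6.32 and 12.4 CPM in MC untagged N-lim. It stood at 18.5, 17.5 and 23.5 CPM in MC tagged Et-lim, against 51.2, 17.8 and 35.1 CPM in MC untagged Et-lim. It stood at 43.5, 32.2 and 58 CPM in MC tagged Glu-lim, against 15.6, 22.9 and 29.4 CPM in MC untagged Glu-lim. The strains were apart in OxGlu-lim and Glu-lim and overlapped in N-lim and Et-lim. The differences were 0.46 ± 0.33 (adjusted p = 0.295) in N-lim, -0.80 ± 0.31 (adjusted p = 0.259) in Et-lim, 4.47 ± 0.38 (adjusted p = 9.76e-10) in OxGlu-lim and 0.97 ± 0.30 (adjusted p = 0.0214) in Glu-lim, and they varied by limitation (edgeR adjusted p = 8.95e-08).

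OLI1, which lies ahead of VAR1 behind the same promoter match, did not show that gap: it stood at 5287, 2795 and 5368 CPM in MC tagged OxGlu-lim, against 3526, 4019 and 4491 CPM in MC untagged OxGlu-lim, with overlap. VAR1 reads were 1.74, 1.88 and 1.01% of OLI1 reads in MC tagged OxGlu-lim, against 0.102, 0.054 and 0.0677% in MC untagged OxGlu-lim, and 2.47, 2.81 and 2.38% in DASGIP tagged OxGlu-lim cultures. Over the 4 limitations the ratio was higher in MC tagged than in MC untagged cultures by 1.61 on the log2 scale, adjusted p = 0.00161, and differed between MC tagged and DASGIP tagged cultures by -1.43 on the log2 scale, adjusted p = 0.000562 (exact permutation tests within limitations).

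ATP8 also stood higher in the tagged strain in OxGlu-lim, with 5.15, 2.82 and 1.09 CPM in MC tagged OxGlu-lim, against 0.449, 0.271 and 0.57 CPM in MC untagged OxGlu-lim. The untagged cultures lay lower without overlap there. The differences were 1.91 ± 0.64 (adjusted p = 0.0235) in N-lim, -0.67 ± 0.50 (adjusted p = 0.678) in Et-lim, 2.75 ± 0.54 (adjusted p = 0.000531) in OxGlu-lim and 0.83 ± 0.54 (adjusted p = 0.277) in Glu-lim. The N-lim call was lost without any 1 of 5 of its 6 libraries; it held without MC tagged N-lim library 3, which lies at 0.412 CPM against 1.35 and 1.48 CPM for its partners. ATP8 reads were 0.0191 to 0.176% of ATP6 reads in the MC tagged groups, against 0.0136 to 0.0188% in the MC untagged groups (1.59 on the log2 scale, adjusted p = 0.00102, exact permutation test). The difference of 21S_rRNA between the strains was 0.24 ± 0.28 (adjusted p = 0.533) in N-lim, -0.56 ± 0.28 (adjusted p = 0.45) in Et-lim, -0.42 ± 0.28 (adjusted p = 0.284) in OxGlu-lim and 0.84 ± 0.28 (adjusted p = 0.0297) in Glu-lim. The Glu-lim difference was 0.47 without MC tagged Glu-lim library 3, and it did not pass there or without any 1 MC untagged Glu-lim library.

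**Figure D5:**
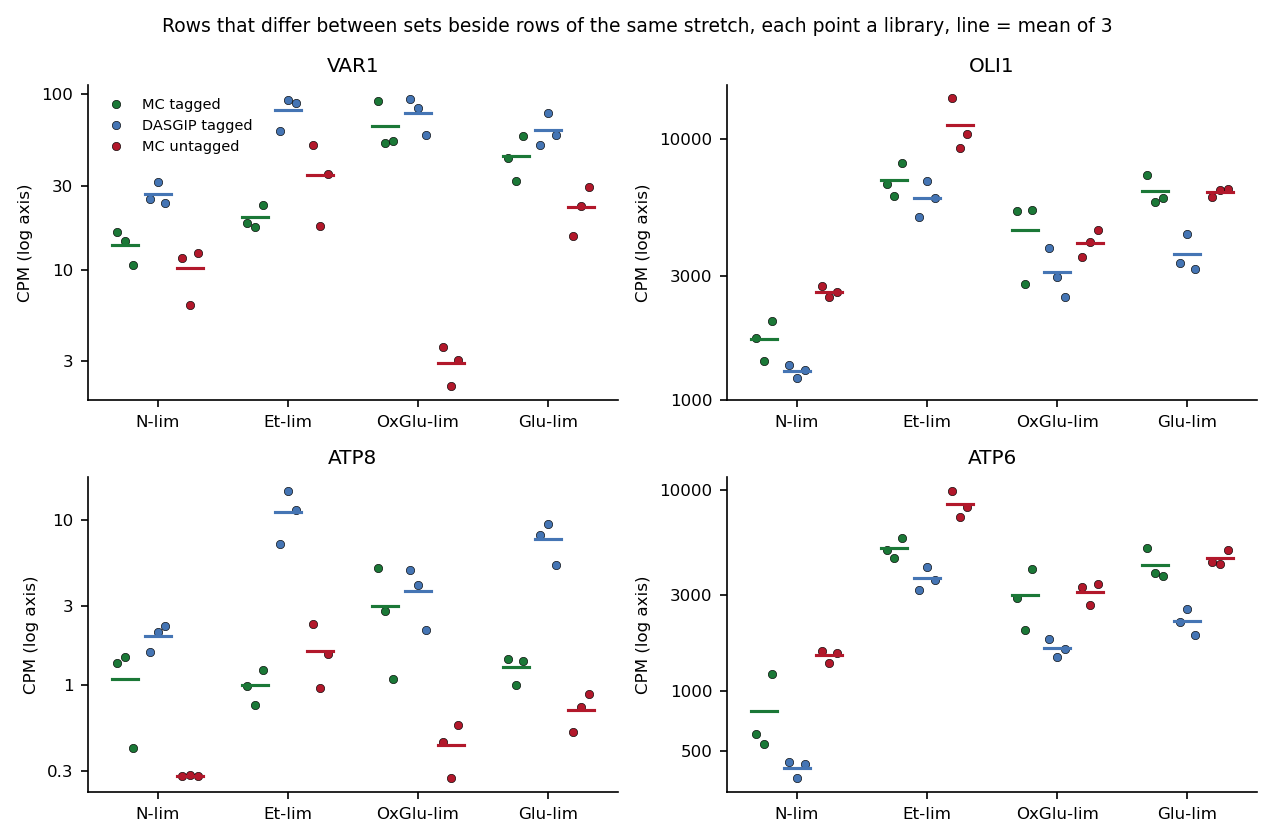
CPM of VAR1, OLI1, ATP8 and ATP6 on log axes, one point per library, for the 4 limitations in the 3 sets. VAR1 in OxGlu-lim lies between 52.6 and 91.9 CPM in MC tagged and between 2.17 and 3.59 CPM in MC untagged cultures, while OLI1 overlaps between them.

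Of the 27 rows 6 were called between the strains in OxGlu-lim, all higher in MC tagged cultures, a share close to the 24.1% of all rows called. Beside VAR1 and ATP8 they were Q0297, Q0182, AI5_BETA and Q0255, which lie outside the naming rule and were picked after their values were seen. Q0297, a frame with no RefSeq entry matched, stood at 687, 398 and 353 CPM in MC tagged OxGlu-lim, against 114, 61 and 91.8 CPM in MC untagged OxGlu-lim (log2 difference 2.43 ± 0.26, edgeR adjusted p = 9.92e-08). Q0182 differed by 1.95 ± 0.41 (adjusted p = 0.00098), AI5_BETA (chrMT:24156-25255), an intron frame near the end of COX1, by 0.80 ± 0.16 (adjusted p = 0.00053), and Q0255 (chrMT:74495-75984), which begins within the end of COX2, by 0.77 ± 0.18 (adjusted p = 0.00272). The mitochondrial genome holds 17.1% G and C. VAR1 holds 10.4%, ATP8 19.0%, AI5_BETA 18.6% and Q0255 18.1%. COB at 18.9% and BI3 at 17.6%, which share reads with each other, lie in that range and were not called. The letters are given for the starts of 4 reading frames, ATP8 beside ATP6 and VAR1 beside OLI1, each pair behind the same promoter match. All 4 rows differed between MC tagged and DASGIP tagged cultures on the mean of the limitations. Shown are the whole of ATP8 (chrMT:27666-27812) and the first 150 bases of ATP6 (chrMT:28487-28636), VAR1 (chrMT:48901-49050) and OLI1 (chrMT:46723-46872), with G and C in capitals.
ATP8: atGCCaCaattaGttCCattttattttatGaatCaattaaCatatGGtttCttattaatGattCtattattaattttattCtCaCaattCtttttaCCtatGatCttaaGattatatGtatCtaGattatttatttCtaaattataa
ATP6: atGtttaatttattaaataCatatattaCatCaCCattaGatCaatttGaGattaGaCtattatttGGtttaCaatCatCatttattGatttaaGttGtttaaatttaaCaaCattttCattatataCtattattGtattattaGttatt
VAR1: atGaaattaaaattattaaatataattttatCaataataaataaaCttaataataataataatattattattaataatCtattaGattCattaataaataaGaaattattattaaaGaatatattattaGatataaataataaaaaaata
OLI1: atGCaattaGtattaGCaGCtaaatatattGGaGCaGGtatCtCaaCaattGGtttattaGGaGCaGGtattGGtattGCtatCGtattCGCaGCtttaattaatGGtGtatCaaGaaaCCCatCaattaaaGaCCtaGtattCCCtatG
G and C make up 6.0% of the VAR1 stretch and 34.67% of the OLI1 stretch, 19.05% of ATP8 and 17.33% of the ATP6 stretch. Composition, length and level differ together between these genes, and their part in the gaps between sets was not tested.

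Set against the mitochondrial reads alone, the rows still changed places. With the sum of the 30 rows as library size, 8 of 27 were called higher and 4 lower in N-lim (96.4% of all rows called), 1 higher and 10 lower in Et-lim (79.1%), 15 higher and 6 lower in OxGlu-lim (91.7%), 2 higher and 13 lower in MC tagged against DASGIP tagged cultures (48.2%), and 11 higher in MC tagged against MC untagged cultures (82.4%). Nuclear rows carry the shift of the whole sum in this scale, so the share of all rows called says nothing about the members. On this scale the largest core differences within their own contrasts were 21S_rRNA in OxGlu-lim at 1.36 ± 0.14, edgeR adjusted p = 1.2e-12, ATP8 in the reactor contrast at -2.05 ± 0.19, edgeR adjusted p = 5.48e-12, and VAR1 in the strain contrast at 1.66 ± 0.14, edgeR adjusted p = 3.21e-14. COB (log2 difference 0.87 ± 0.06, edgeR adjusted p = 1.49e-17) and COX2 (log2 difference 0.86 ± 0.07, edgeR adjusted p = 7.79e-16) were higher in OxGlu-lim on this scale. COX1 and its nested frames make up most of the size used, so COX1 itself is bound near 0 on it; with the 20-row sum as the size COX1 was lower in OxGlu-lim (log2 difference -0.27 ± 0.05, edgeR adjusted p = 1.57e-06), an alternative added after the data were seen.

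Of the 17 tested rows outside the core, 10 lie inside COX1, COB or 21S_rRNA. In Et-lim 11 of the 17 were called higher and 3 lower (59.3% of all rows called), between -0.66 (Q0142) and 0.84 (Q0297). In OxGlu-lim 9 were called lower and none higher (65.2% of all rows), between -1.95 (Q0010) and 0.08 (BI4). In MC tagged against DASGIP tagged cultures 8 were called higher and 5 lower (34.4% of all rows), between -1.13 (Q0010) and 0.34 (BI4). In MC tagged against MC untagged cultures 2 were called higher and 8 lower (18.1%), between -0.35 (AI1) and 0.64 (Q0142). Q0255 shares a few bases with COX2, and rows nested in COX1 or COB share reads with them and are no separate evidence.

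Nuclear genes for the same complexes were mostly called higher in Et-lim and lower in OxGlu-lim. Of all rows 71.7% were called in N-lim, 59.3% in Et-lim and 65.2% in OxGlu-lim. Of 10 nuclear subunit genes of complex IV, 6 were called higher and 2 lower in N-lim, 8 higher and 2 lower in Et-lim, and 2 higher and 8 lower in OxGlu-lim, each against Glu-lim. COX5B, the subunit isoform known for low oxygen, differed by 1.47 ± 0.11 (adjusted p = 7.33e-13) in N-lim, -1.12 ± 0.13 (adjusted p = 2.35e-08) in Et-lim and 2.24 ± 0.11 (adjusted p = 3.81e-17) in OxGlu-lim, while COX4 in N-lim at -0.02 ± 0.05 (adjusted p = 0.767) did not pass. Of 9 genes of complex III, 1 was called higher and 2 lower in N-lim, 9 higher in Et-lim (QCR7 at 0.85 ± 0.05 (adjusted p = 3.41e-14)) and 9 lower in OxGlu-lim (CYT1, cytochrome c1, at -0.77 ± 0.06 (adjusted p = 5.29e-12)). Of 14 genes of the ATP synthase, 1 was called higher and 6 lower in N-lim (TIM11 at -0.83 ± 0.07 (adjusted p = 3.1e-12)), 14 higher in Et-lim and 11 lower in OxGlu-lim (ATP20, subunit g, at 0.92 ± 0.07 (adjusted p = 1.03e-12) in Et-lim and -0.76 ± 0.07 (adjusted p = 4.31e-11) in OxGlu-lim). The median differences of the 3 lists in N-lim were 0.15, 0.01 and -0.10 (log2), against -1.67 for the mitochondrial rows and -0.0216 for all rows.

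The genes that make and process mitochondrial RNA were called in both directions. RPO41, the polymerase, differed by -0.30 ± 0.04 (adjusted p = 3.09e-08) in N-lim, 0.00 ± 0.04 (adjusted p = 0.924) in Et-lim and 0.13 ± 0.04 (adjusted p = 0.00374) in OxGlu-lim, and MTF1 by 0.38 ± 0.06 (adjusted p = 2.29e-06), 0.01 ± 0.06 (adjusted p = 0.858) and 0.22 ± 0.06 (adjusted p = 0.00312) in the same order; neither passed in the reactor or strain contrast. Of 10 genes for splicing of mitochondrial introns, 2 were called higher and 7 lower in N-lim, 2 and 3 in Et-lim, and 7 and 2 in OxGlu-lim, where MSS18, which acts on a COX1 intron, differed by -0.55 ± 0.07 (adjusted p = 3.32e-08). Of 8 genes for decay and end processing of mitochondrial RNA, 3 were called higher and 4 lower in N-lim, 4 and 1 in Et-lim, and 5 and 0 in OxGlu-lim. RPM2, the protein of mitochondrial RNase P, differed by 0.76 ± 0.06 (adjusted p = 2.39e-12) in Et-lim and 0.42 ± 0.06 (adjusted p = 1.85e-07) in OxGlu-lim. Of 23 translation activators and mRNA-specific factors, 3 were called higher and 9 lower in N-lim, 13 and 3 in Et-lim, and 11 and 4 in OxGlu-lim. NCA3, which acts on the ATP8 and ATP6 mRNA, differed by -2.37 ± 0.13 (adjusted p = 4.06e-16) in N-lim and by 0.97 ± 0.11 (adjusted p = 8.4e-08) between MC tagged and DASGIP tagged cultures.

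Of 14 genes for upkeep of mitochondrial DNA, 4 were called higher and 5 lower in N-lim, 3 and 3 in Et-lim, and 5 and 8 in OxGlu-lim. Of 5 HAP regulators, 2 were called higher and 2 lower in N-lim, 2 and 1 in Et-lim, and 1 and 0 in OxGlu-lim. HAP1 differed by -1.16 ± 0.06 (adjusted p = 3.62e-16) in N-lim and -0.79 ± 0.06 (adjusted p = 8.67e-12) in Et-lim, and HAP4, the limiting activator subunit, by 0.59 ± 0.06 (adjusted p = 6.36e-10) in OxGlu-lim. HAP4 means lay above Glu-lim in Et-lim too, at 311 against 171 CPM in MC tagged and 340 against 208 CPM in MC untagged cultures. In DASGIP tagged cultures they were 280 against 221 CPM, with overlap. In MC tagged against DASGIP tagged cultures the calls, higher and lower, were 1 and 3 for complex IV, 0 and 2 for complex III, 2 and 0 for the ATP synthase, 0 and 2 for splicing, 0 and 2 for decay, 2 and 6 for translation activators, 4 and 4 for DNA upkeep, and 1 and 1 for HAP regulators. In MC tagged against MC untagged cultures they were 4 and 0 for complex IV, 1 and 0 for complex III, 3 and 0 for the ATP synthase, 0 and 0 for splicing and for decay, 2 and 1 for translation activators, 3 and 0 for DNA upkeep, and 1 and 0 for HAP regulators. Of all rows 34.4% were called in the reactor contrast and 18.1% in the strain contrast. The mating-type genes moved with the limitation as well: of 7 MATa genes 7 were called higher in N-lim, 6 in Et-lim and 7 in OxGlu-lim and none lower, with 3 lower in the reactor and 2 lower in the strain contrast. Of 4 MATalpha genes 2 were called higher and 1 lower in N-lim, 1 and 1 in Et-lim, 2 and 1 in OxGlu-lim, and 1 and 0 in both other contrasts. The part of these changes in the mitochondrial results was not tested.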

How the data were processed

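RNeasy columns gave the RNA of 36 chemostat cultures, which became stranded total RNA libraries with ribosomal RNA removed, per the labels' protocols. The deposited tables hold whole-number counts of reads per annotated row, made by the authors with Bowtie2, SAMtools and bedtools on build R64, per the submitters' processing notes. How reads were assigned to rows, with or without strand and with multiple matches, is not stated in the labels used. The R64 sequence is not that of CEN.PK strains. A further 36 per-sample CPM columns in the tables were not used, 4 rows were empty, and 122 of the 7122 rows in use were 0 in every library.

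Counts were fitted in edgeR 4.0.16 (R 4.3.3, limma 3.58.1) with 1 mean per group, TMM factors, filterByExpr and the quasi-likelihood F test with 24 residual degrees of freedom. Adjusted p-values are Benjamini-Hochberg values over 6612 rows with a threshold of 0.05. Means of 3 sets or 4 limitations and 17 contrasts within them were tested. Limitation contrasts share the Glu-lim libraries, and both other contrasts use the MC tagged set. Ratios of rows were compared per library as log2((a + 0.5)/(b + 0.5)) by two-sided exact permutation within strata, with 8000 or 160000 arrangements (smallest p 0.00025 or 1.25e-05), adjusted over 45 tests of which 30 passed. The fit was tested on simulated data. Coordinates and sequences come from RefSeq's R64 annotation. DESeq2 1.42.0, other scalings and filters, the replicate block, single sets and leaving out each library were alternatives. Figures used matplotlib 3.10.9, and Python 3.11.15, numpy 2.4.6, pandas 2.3.3 and scipy 1.17.1 did the rest.

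The members, gene lists and tests were chosen with earlier results of these data known. Tests per row are given for 10 core rows, levels and counts for the other 20, and for each nuclear list the member with the largest called difference and the member nearest to 0, with RPO41 and MTF1 always. The lists were nuclear genes of complexes III and IV and of the ATP synthase, mitochondrial transcription, DNA upkeep, intron splicing, RNA decay and end processing, translation activators, HAP regulators, and MATa and MATalpha markers.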

Additional observations from a re-analysis of the deposited data

Results flagged for a closer look

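The difference between vessels or strains was not the same in all limitations for several core rows, by edgeR's quasi-likelihood test of 3 contrasts at once with adjustment over 6612 rows. Between MC tagged and DASGIP tagged cultures it varied for ATP8 (adjusted p = 0.000436), 21S_rRNA (0.00155), VAR1 (0.00911) and 15S_rRNA (0.0116). ATP8 was called lower in MC tagged cultures in Et-lim and Glu-lim, VAR1 in N-lim and Et-lim, and 21S_rRNA and 15S_rRNA in N-lim and Et-lim.

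Between MC tagged and MC untagged cultures it varied for VAR1 (adjusted p = 8.95e-08), ATP8 (0.00326), 21S_rRNA (0.0133), COX2 (0.0133), OLI1 (0.0217), COB (0.0315), COX3 (0.032) and ATP6 (0.043). VAR1 was called higher in MC tagged cultures in OxGlu-lim and Glu-lim, ATP8 in N-lim and OxGlu-lim, and 21S_rRNA in Glu-lim. COX2, COX3, COB, OLI1 and ATP6 lay lower in MC tagged cultures without overlap in N-lim and Et-lim and overlapped in OxGlu-lim and Glu-lim. COX1 showed the same pattern of overlap and is not among the rows whose strain difference passed this test.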

How the results depend on the processing

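The 12 groups were fitted once with the settings given above and again under each alternative; reactor stands for MC tagged minus DASGIP tagged and strain for MC tagged minus MC untagged cultures. Of the core row differences on the 5 mean contrasts and the contrasts within sets or limitations that the text names, 1009 kept direction and side of the threshold, 28 no longer passed, 12 newly passed and 26 changed sign, over all settings other than leaving out a library. Counts of members called stayed within 1.5 times in 196 of the refitted counts and moved further in 20, and for the nuclear lists in 462 and 33. The cause was not tested for any of them, apart from alternatives that use fewer libraries or rows. Without scaling factors the median of all rows shifted by 0.41 in N-lim, -0.20 in Et-lim, 0.29 in OxGlu-lim, -0.09 in the reactor and 0.14 in the strain contrast, so differences on that scale are read against these medians.

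Without scaling factors the members called were 8 for Et-lim in DASGIP tagged, 14 for OxGlu-lim in DASGIP tagged, 5 for strain in Et-lim and 8 for strain in Glu-lim. The differences there were -0.12 for 15S_rRNA in the Et-lim contrast, 0.11 for ATP8 in the OxGlu-lim contrast, 0.21 for COB in the OxGlu-lim contrast of MC tagged cultures and 0.38 for COB in the OxGlu-lim contrast of MC untagged cultures. With the compared libraries alone in the fit the members called were 11 for Et-lim in DASGIP tagged, 6 for OxGlu-lim in MC tagged, 5 for reactor in N-lim, 0 for reactor in OxGlu-lim, 5 for strain in N-lim, 2 for strain in Et-lim and 7 for strain in Glu-lim. The difference there was 0.018 for COB in the OxGlu-lim contrast of MC tagged cultures. In DESeq2 the members called were 8 for reactor in OxGlu-lim, 14 for reactor in Glu-lim and 5 for strain in Et-lim. The difference there was 0.016 for COB in the OxGlu-lim contrast of MC tagged cultures. With a minimum of 5 CPM in 3 libraries the members called were 4 for Et-lim in MC tagged. The difference there was 0.0025 for COB in the OxGlu-lim contrast of MC tagged cultures. With no filter on low counts the difference was 0.00086 for COB in the OxGlu-lim contrast of MC tagged cultures. Without the small RNA rows the difference was 0.0061 for COB in the OxGlu-lim contrast of MC tagged cultures. With parts that do not overlap in place of nested rows, an alternative added after the data were seen, the members called were 11 for strain, 4 for OxGlu-lim in DASGIP tagged, 9 for OxGlu-lim in MC tagged, 8 for reactor in OxGlu-lim and 14 for reactor in Glu-lim.

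With the geometric mean of the 8 protein-coding rows as the size, the N-lim difference relative to mitochondrial reads was -0.088 for 21S_rRNA. The Et-lim difference relative to mitochondrial reads was 0.032 for COB and 0.0079 for ATP8. The OxGlu-lim difference relative to mitochondrial reads was -0.43 for COX1, -0.13 for ATP6, -0.11 for OLI1 and -0.32 for VAR1. The reactor difference relative to mitochondrial reads was 0.063 for COX2 and 0.26 for COX3. The strain difference relative to mitochondrial reads was -0.38 for COX1, -0.25 for COX2, -0.34 for OLI1 and -0.021 for 21S_rRNA. That size gave 17 members called in the strain contrast, against 11 with the 30-row sum. With the 20-row sum as the size, added after the data were seen, the OxGlu-lim difference relative to mitochondrial reads was -0.27 for COX1 and -0.15 for VAR1. The strain difference relative to mitochondrial reads was -0.019 for COX1.

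Same-numbered replicates did not pair the samples: over 51 pairs the correlation of deviations from group means was -0.358 to 0.259 (median 0.004), and in 0 of 17 comparisons did all 3 pairs pass 0.1. With the replicate number as a block the 21S_rRNA difference for OxGlu-lim in MC tagged cultures was -0.021, and the block changed no other call or sign of a core row and moved no count of members called by over 1.5 times. With sign flips within same-numbered pairs as the replicate block, these ratio differences no longer passed: -0.15 for ATP6 to COX1 in the strain contrast, 0.19 for COB to COX1 in the N-lim contrast, 0.015 for BI4 to COB in the OxGlu-lim contrast, -0.015 for BI4 to COB in the strain contrast, -0.41 for SCEI to 21S_rRNA in the Et-lim contrast and 0.48 for SCEI to 21S_rRNA in the reactor contrast.

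The 9 ratios were also taken within each set and limitation, where 3 libraries against 3 can reach no p below 0.1, so the values stand without a test. In MC tagged cultures alone the log2 ratio difference for N-lim was -0.50 for 21S_rRNA to 15S_rRNA, 2.10 for ATP8 to ATP6, 0.70 for COX2 to COX3 and -0.062 for COB to COX1. Other values were 0.024 for AI4 to COX1 and -0.73 for SCEI to 21S_rRNA. For Et-lim it was -0.40 for 21S_rRNA to 15S_rRNA, -1.27 for VAR1 to OLI1, -0.65 for ATP8 to ATP6 and -0.13 for COB to COX1. Other values were 0.039 for AI4 to COX1 and 0.082 for SCEI to 21S_rRNA. For OxGlu-lim it was -0.20 for 21S_rRNA to 15S_rRNA, 1.11 for VAR1 to OLI1, 1.54 for ATP8 to ATP6 and 0.60 for COX2 to COX3. Other values were 0.75 for COB to COX1 and -0.11 for AI4 to COX1. In DASGIP tagged cultures alone the log2 ratio difference for N-lim was 0.051 for 21S_rRNA to 15S_rRNA, -0.64 for ATP6 to COX1, 0.46 for COX2 to COX3 and 0.45 for COB to COX1. Other values were 0.052 for AI4 to COX1. For Et-lim it was 0.065 for 21S_rRNA to 15S_rRNA, 0.012 for AI4 to COX1 and -1.06 for SCEI to 21S_rRNA. For OxGlu-lim it was 0.63 for 21S_rRNA to 15S_rRNA, 0.56 for VAR1 to OLI1, -0.65 for ATP8 to ATP6 and 0.15 for COX2 to COX3. Other values were 1.00 for COB to COX1, -0.098 for AI4 to COX1, 0.00033 for BI4 to COB and -0.48 for SCEI to 21S_rRNA. In MC untagged cultures alone the log2 ratio difference for N-lim was -0.098 for ATP6 to COX1, 0.013 for AI4 to COX1 and 0.11 for SCEI to 21S_rRNA. For Et-lim it was -0.30 for VAR1 to OLI1, 0.21 for ATP8 to ATP6 and 0.0063 for AI4 to COX1. For OxGlu-lim it was -2.27 for VAR1 to OLI1, -0.057 for AI4 to COX1, 0.033 for BI4 to COB and -1.63 for SCEI to 21S_rRNA. In N-lim cultures alone the log2 ratio difference for reactor was 0.65 for ATP6 to COX1, -0.30 for COB to COX1, -0.045 for AI4 to COX1 and 0.064 for SCEI to 21S_rRNA. For strain it was -0.43 for 21S_rRNA to 15S_rRNA, 1.10 for VAR1 to OLI1, -0.36 for ATP6 to COX1 and 2.67 for ATP8 to ATP6. Other values were -0.15 for COB to COX1, -0.014 for AI4 to COX1, -0.0020 for BI4 to COB and -1.25 for SCEI to 21S_rRNA. In Et-lim cultures alone the log2 ratio difference for reactor was -2.24 for VAR1 to OLI1, -3.93 for ATP8 to ATP6, -0.36 for COX2 to COX3 and 0.085 for COB to COX1. Other values were 0.0084 for AI4 to COX1 and 1.45 for SCEI to 21S_rRNA. For strain it was 0.0029 for VAR1 to OLI1, 0.094 for ATP8 to ATP6, 0.0072 for AI4 to COX1 and -0.00034 for BI4 to COB. In OxGlu-lim cultures alone the log2 ratio difference for reactor was -0.27 for 21S_rRNA to 15S_rRNA, -0.77 for VAR1 to OLI1, -1.28 for ATP8 to ATP6 and 0.091 for COX2 to COX3. Other values were 0.11 for SCEI to 21S_rRNA. For strain it was 4.36 for VAR1 to OLI1, 2.63 for ATP8 to ATP6, 0.29 for COX2 to COX3 and -0.074 for AI4 to COX1. Other values were -0.039 for BI4 to COB and 0.55 for SCEI to 21S_rRNA. In Glu-lim cultures alone the log2 ratio difference for reactor was 0.56 for 21S_rRNA to 15S_rRNA, -0.36 for COX2 to COX3 and 0.21 for COB to COX1. For strain it was 0.015 for 21S_rRNA to 15S_rRNA, 0.98 for VAR1 to OLI1, 0.020 for COX2 to COX3 and 0.099 for COB to COX1.

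The mean share of the 30 rows moved by more than 1 SD when the total changed. Without the small RNA rows in the total it was 41.3% in Et-lim, 27.6% in OxGlu-lim and 39.9% in Glu-lim of MC tagged cultures. It was 12.3% in N-lim, 39.1% in Et-lim, 21.2% in OxGlu-lim and 31.2% in Glu-lim of DASGIP tagged cultures. It was 18.8% in N-lim, 51.2% in Et-lim, 28.5% in OxGlu-lim and 38.6% in Glu-lim of MC untagged cultures. As a percent of the reads of nuclear reading frames it was 15.3% in N-lim, 71.0% in Et-lim, 38.5% in OxGlu-lim and 67.0% in Glu-lim of MC tagged cultures. It was 14% in N-lim, 64.5% in Et-lim, 27.0% in OxGlu-lim and 45.5% in Glu-lim of DASGIP tagged cultures. It was 23.2% in N-lim, 106.0% in Et-lim, 39.8% in OxGlu-lim and 63.1% in Glu-lim of MC untagged cultures. For the 20 rows left without the nested rows it was 3.47% in N-lim, 12.8% in Et-lim, 9.06% in OxGlu-lim and 12.8% in Glu-lim of MC tagged cultures. It was 3.35% in N-lim, 12.9% in Et-lim, 7.14% in OxGlu-lim and 9.29% in Glu-lim of DASGIP tagged cultures. It was 4.86% in N-lim, 17.5% in Et-lim, 9.16% in OxGlu-lim and 11.3% in Glu-lim of MC untagged cultures. Without the rRNA rows it was 10.6% in DASGIP tagged N-lim cultures.

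Each of the 36 libraries was left out in turn, and an arm left with 2 libraries shares the spread of the other groups. For the shares of the COX1 and COB parts, leaving out libraries was an alternative added after the data were seen. It covered OxGlu-lim against Glu-lim, and its outcome is not given here. The number of members called then ran over 4 to 17 for Et-lim in DASGIP tagged, 9 to 18 for Et-lim in MC untagged, 3 to 8 for reactor in N-lim and 1 to 13 for reactor in OxGlu-lim. Further ranges were 3 to 12 for reactor in Glu-lim, 6 to 16 for strain in N-lim, 0 to 4 for strain in Et-lim and 1 to 5 for strain in Glu-lim. Further ranges were 5 to 13 for a reactor difference that varies by limitation and 10 to 23 for such a strain difference. The lowest counts came without these libraries: DASGIP tagged Et-lim 2 (4) or Glu-lim 3 (4), Glu-lim 1 (5) and Et-lim 3 (11) for Et-lim in DASGIP tagged, and MC untagged Et-lim 1 (9) for Et-lim in MC untagged cultures. For the reactor they came without MC tagged N-lim 3 (3), N-lim 2 (5) or DASGIP tagged N-lim 1 or 2 (5 each) in N-lim, and without DASGIP tagged Glu-lim 1 (3) or 3 (4) or MC tagged Glu-lim 1 (3) in Glu-lim. In OxGlu-lim the reactor count was 13 without MC tagged OxGlu-lim 2, 9 without MC tagged N-lim 3, 4 without DASGIP tagged OxGlu-lim 1 or MC untagged OxGlu-lim 2, and 1 without DASGIP tagged OxGlu-lim 3. For the strain the count was 6 without MC tagged N-lim 1 or 2 and 9 without MC untagged N-lim 3 in N-lim, 4 without MC untagged Et-lim 2 and 1 without MC tagged N-lim 3 or OxGlu-lim 2 in Et-lim, and in Glu-lim 5 without MC tagged Glu-lim 2 and 1 without MC tagged Glu-lim 3 or MC untagged Glu-lim 1 or 2. Members varying by limitation in the reactor contrast were 13 without MC tagged N-lim 3 and 5 without MC tagged Et-lim 1, and in the strain contrast 10 without MC untagged Glu-lim 1.

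Differences whose sign changed when a library was left out ran over -0.19 to 0.045 for VAR1 in Et-lim, -0.074 to 0.12 for 21S_rRNA in Et-lim, -0.0012 to 0.27 for 15S_rRNA in Et-lim and -0.017 to 0.14 for COB in OxGlu-lim. Further ranges were -0.068 to 0.0038 for COX2 in reactor, -0.068 to 0.085 for 21S_rRNA in strain, -0.48 to 0.11 for 15S_rRNA in OxGlu-lim in DASGIP tagged and -0.25 to 0.22 for COB in OxGlu-lim in MC tagged. Further ranges were -0.25 to 0.38 for 21S_rRNA in OxGlu-lim in MC tagged, -0.092 to 0.73 for 15S_rRNA in OxGlu-lim in MC tagged, -0.12 to 0.062 for COB in OxGlu-lim in MC untagged and -0.94 to 0.066 for ATP8 in reactor in OxGlu-lim. Further ranges were -0.40 to 0.20 for 21S_rRNA in reactor in OxGlu-lim. Relative to mitochondrial reads, such differences ran over -0.035 to 0.17 for 21S_rRNA in N-lim, -0.0034 to 0.038 for COX2 in Et-lim, -0.12 to 0.0096 for ATP8 in Et-lim and -0.035 to 0.012 for COB in strain. Further ranges were -0.026 to 0.0094 for COX3 in strain. Among the ratios, the values ran over 0.81 to 1.30 for ATP8 to ATP6 in N-lim, -0.037 to 0.0060 for COB to COX1 in reactor, -0.0019 to 0.0038 for BI4 to COB in N-lim and 0.0045 to 0.0088 for BI4 to COB in reactor. Further ranges were -0.45 to -0.30 for SCEI to 21S_rRNA in N-lim, -0.054 to -0.026 for COB to COX1 in Et-lim, -0.49 to -0.34 for SCEI to 21S_rRNA in Et-lim and 0.012 to 0.017 for BI4 to COB in OxGlu-lim. Further ranges were -0.19 to -0.13 for ATP6 to COX1 in strain and -0.017 to -0.012 for BI4 to COB in strain. Named differences that lost their call were those of COX1, COB and OLI1 in the strain contrast, ATP6 for the reactor in N-lim and OxGlu-lim, COX1 for Et-lim in DASGIP tagged and MC untagged cultures, VAR1 for the strain in Glu-lim without MC tagged Glu-lim 1 or 3 or MC untagged Glu-lim 1 or 2, VAR1 for the reactor in N-lim without DASGIP tagged N-lim 1 or 2 or MC tagged N-lim 2 or 3, and ATP8 for the strain in N-lim without any 1 of 5 libraries. Calls were gained by 15S_rRNA and 21S_rRNA in OxGlu-lim, COX3 for the reactor and COX2 for the strain. The 21S_rRNA difference for the strain in Glu-lim was 0.47 and did not pass without MC tagged Glu-lim 3, nor did it pass without any 1 MC untagged Glu-lim library. Depth limits ATP8 and VAR1 in MC untagged cultures, where they had as few as 4 and 32 reads.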

Other observations

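RPM1 (chrMT:85295-85777), the mitochondrially encoded RNA of RNase P, lies outside the rule that chose the members. It took 0.0561 ± 0.0212% of all counted reads in MC tagged OxGlu-lim, 0.0393 ± 0.00849% in DASGIP tagged OxGlu-lim and 0.00986 ± 0.00311% in MC untagged OxGlu-lim cultures (SD, n = 3 each), and 0.00676 to 0.0786% over all 36 libraries. The member Q0297 also stood higher in MC tagged than in MC untagged OxGlu-lim cultures. No position was matched for Q0297, so whether Q0297 and RPM1 share reads could not be checked. The 24 rows for mitochondrial tRNAs together took 0.000244 to 0.00367% (median 0.00117%). The 86 nuclear small RNA rows took 11.3 to 20.2%.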
